A study of Mus musculus with 15 samples.

Results

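In 4 of the 15 sequenced mouse ovaries the transcript of Cyp17a1 was nearly lost, and these 4 ovaries were compared with the other 11. CYP17A1 is the enzyme that turns progestins into androgens in the theca cells around the follicle. An ovary was called low when its Cyp17a1 level was under 1000 normalized counts (reads on the gene divided by 1 size factor per library) and high otherwise. The low ovaries were WT 3, WT 6, HSD17B1-KI 4 and HSD17B1-KI 5, so that both genotypes gave 2, and the high ovaries were 6 WT and 5 HSD17B1-KI. The 4 ovaries were thus chosen by their measured Cyp17a1 counts and not by a treatment, and Cyp17a1 itself is only described. HSD17B1-KI mice were homozygous for a Ser143Ala point mutation in the active site of HSD17B1, made with CRISPR/Cas9, and WT mice were wild type at this gene and came from the same heterozygous breeding. All mice were females of 6 months of age taken in estrus, without treatment, and each gave 1 library of ovarian mRNA.

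The follicle makes sex steroids by a division of labour. Theca cells take up cholesterol, turn it into pregnenolone and progesterone and then, through CYP17A1, into androgens. Granulosa cells turn these androgens into estrogens through aromatase and HSD17B1, and they also make inhibins and activins and signal to the theca with hedgehog ligands. The surge of luteinizing hormone (LH) that starts ovulation brings on matrix proteases, prostaglandin and cumulus genes in the follicle, after which the corpus luteum forms and makes mainly progesterone.

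Cyp17a1 (ENSMUSG00000003555, minus strand of chr19:46667165-46673172 on GRCm38, the assembly of mm10) was at 107 normalized counts in WT 3, 141 in WT 6, 224 in HSD17B1-KI 4 and 254 in HSD17B1-KI 5. The high ovaries began at 2033 in WT 2 and 2967 in WT 1, followed by 6322 in WT 5, 13298 in WT 7, 14130 in WT 4 and 21605 in WT 8. All 5 high HSD17B1-KI ovaries stood above the 6 high WT ovaries, with 24106, 41683, 46944, 52598 and 56551. The highest low ovary and the lowest high ovary, between which the limit falls, were thus at 254 and 2033. Of its neighbours on the chromosome, Wbp1l was at 8131, 8888, 9653 and 8819 in the low ovaries and from 6031 to 8016, with a median of 6672, in the high ovaries. Every low ovary was above every high ovary, and Wbp1l was called higher in the limma-trend comparison described below (0.39 ± 0.07, adjusted p = 0.00277). It was not called against only the 3 high ovaries with few oviduct reads (0.30, adjusted p = 0.124). Borcs7, listed under the symbol 2010012O05Rik, was at 897, 848, 897 and 865 in the low and from 764 to 1147, with a median of 908, in the high ovaries. Neither neighbour was near loss in the low ovaries. The models of Cyp17a1 and Wbp1l in GENCODE M21 do not overlap, and that of Borcs7 was not compared.

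**Figure D1:**
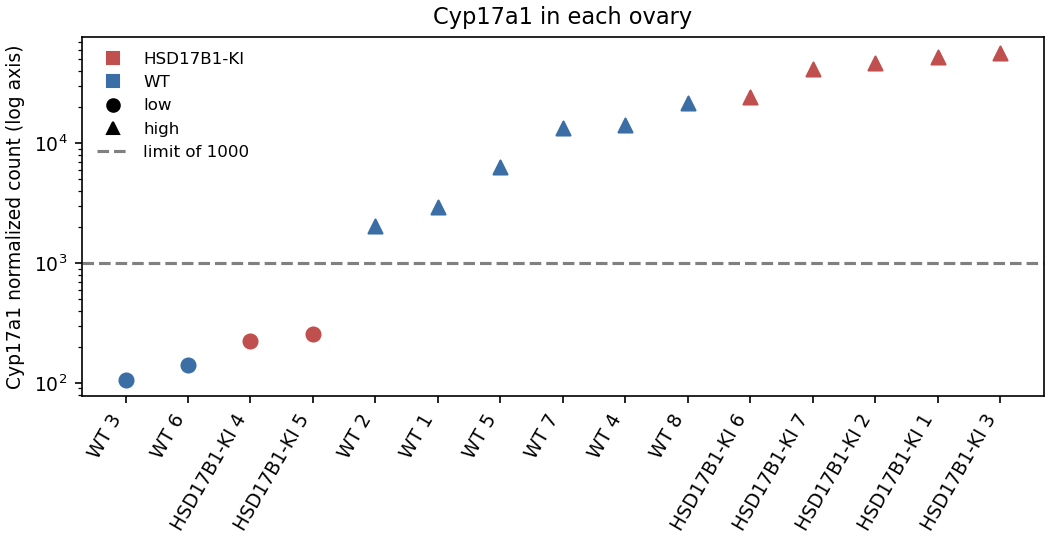
Normalized count of Cyp17a1 (log axis) in each of the 15 ovaries, ordered by that count, with colour for genotype, circles for low and triangles for high ovaries. The 4 low ovaries lie at 107 to 254 and the 11 high ovaries at 2033 to 56551, on both sides of the limit of 1000.

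The depth was similar on both sides, with 37987574 to 57581251 reads on genes in the low and 26544745 to 72362981 in the high ovaries. The level of oviduct RNA was not. The summed level of 7 oviduct genes was 268.6 to 725.9 normalized counts in the low ovaries, while among the high ovaries it was 235.3 to 522.7 in HSD17B1-KI 7, WT 5 and HSD17B1-KI 2 and 4712 to 223800 in the other 8. Each result below was for this reason also computed against only the 3 high ovaries with as few oviduct reads. Expression was compared on log2(normalized count + 1) with limma-trend, with genotype as a term, two-sided, over the 21524 genes other than Cyp17a1 that averaged 2 or more normalized counts, and a gene was called when its Benjamini-Hochberg adjusted p was under 0.05. Such a p measures whether a gene varied with the Cyp17a1 state beyond the spread between ovaries. All log2 differences below are low minus high with their SE, and values of the low ovaries are always given in the order WT 3, WT 6, HSD17B1-KI 4 and HSD17B1-KI 5.

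In this comparison 3256 genes differed, which is 15.1% of those tested. Of these, 1798 were higher in the low ovaries (8.35%) and 1458 were lower (6.77%), and the median over all genes was -0.02. All 4 low ovaries lay above all 11 high ovaries for 921 genes (4.28%) and below them for 563 genes (2.62%). These shares are the background against which the counts of each gene list stand. With the oviduct level as a further term 2218 genes were called (10.3%), and against the 3 high ovaries with few oviduct reads 1169 were called (5.43%), 1000 of which were also called against all 11. The difference between low and high was also compared between HSD17B1-KI and WT ovaries, and the interaction term of limma-trend gave 0 genes after adjustment and 702 at an unadjusted p under 0.05, while edgeR also gave 0. In bulk RNA a lower level cannot be told apart from fewer cells of the type that makes it.

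Androgen output of the theca did not move as a block. Of 15 genes of this list other than Cyp17a1, 2 were lower, 2 were higher and 11 were not called, with a median log2 difference of -0.09. Cyb5a, the cytochrome b5 that raises the androgen-forming activity of CYP17A1, was at 10410, 10050, 8589 and 10290 normalized counts in the low ovaries and from 12010 to 19970, with a median of 15280, in the high ovaries. Its ranges did not overlap and it fell (-0.65 ± 0.11, adjusted p = 0.00103). Nr5a1, which encodes the steroidogenic regulator SF-1, was at 12480, 12110, 17090 and 14420 in the low and from 13590 to 33670, with a median of 21160, in the high ovaries. It also fell (-0.66 ± 0.14, adjusted p = 0.00445), although the low HSD17B1-KI ovaries overlapped with the lowest high WT ovaries.

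Por went the other way. This reductase hands electrons to CYP17A1 and to the other microsomal P450 enzymes, and its level was 10160, 9540, 10000 and 10990 in the low ovaries against 4547 to 7498 (median 6157), in the high ovaries. Every low ovary was above every high ovary (0.74 ± 0.09, adjusted p = 0.000116). Srd5a1, a 5alpha-reductase of androgens and progesterone, was at 7035, 5741, 6994 and 6030 in the low ovaries and from 2520 to 5393, with a median of 3425, in the high ones, again without overlap (0.84 ± 0.16, adjusted p = 0.00284). Lhcgr, the LH receptor, was at 9081, 8251, 13880 and 12380 in the low ovaries and from 6203 to 44180, with a median of 24340, in the high ovaries and was not called (-0.96 ± 0.39, adjusted p = 0.114). Its high ovaries fell apart, since WT 7, WT 8 and WT 4 were at 6203, 8208 and 9173, within or below the range of the low ovaries. Insl3, a peptide hormone of theca cells, was at 29.7, 22.5, 29.4 and 34.2 in the low and from 18.1 to 131, with a median of 37, in the high ovaries (-0.63 ± 0.29, adjusted p = 0.155). All 4 called genes kept their call against the 3 high ovaries with few oviduct reads. In that comparison Lhcgr was called as well, with every low ovary below the 3 high ovaries (-1.74, adjusted p = 0.00386). These 3 were at 34290 to 44180 for Lhcgr, and WT 7, WT 8 and WT 4 are not among them. With the oviduct level as a term over all ovaries Lhcgr was not called (-1.35, adjusted p = 0.0619).

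On the steps from cholesterol to progesterone, of 12 genes 3 were higher in the low ovaries, none was called lower and 9 were not called, with a median of 0.18. Against the 3 high ovaries with few oviduct reads Tspo and Fdxr kept their call. There Scarb1, the receptor for high density lipoprotein, was called lower (-0.80, adjusted p = 0.0169). It was not called against all 11 (-0.43 ± 0.29, adjusted p = 0.357), nor with the oviduct level as a term (-0.57, adjusted p = 0.33). Its level was 38870 to 53710 in the 3 high ovaries and 20340 to 80070 over all 11. Tspo, a cholesterol-binding protein of the outer mitochondrial membrane, was at 5976, 5381, 5197 and 6343 in the low ovaries and from 1447 to 3136, with a median of 2165, in the high ovaries. It was 2.61-fold higher by the group means and the ranges were apart (1.41 ± 0.15, adjusted p = 4.40e-05). Fdxr, the reductase that feeds electrons to the side chain cleavage enzyme, was at 46090, 34080, 38030 and 36430 against 11580 to 31040 (median 19870) (0.99 ± 0.19, adjusted p = 0.00267).

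Star, which carries cholesterol into mitochondria, was at 47690, 40360, 73440 and 103600 in the low ovaries and from 5151 to 41060, with a median of 23290, in the high ovaries. The low ovaries were higher (1.78 ± 0.47, adjusted p = 0.0197), but WT 5 among the high ovaries was at 41060, above WT 6 among the low. Without HSD17B1-KI 5, WT 3 or WT 6 Star was not called, with an adjusted p of up to 0.0731. Nor was it called with the oviduct level as a term (1.63, adjusted p = 0.0799) or against the 3 high ovaries with few oviduct reads (1.27, adjusted p = 0.118). Cyp11a1, the side chain cleavage enzyme, was at 355300, 327900, 470900 and 403500 against 153400 to 390700 (median 301400), and did not pass (0.55 ± 0.24, adjusted p = 0.137). Hsd3b1, which forms progesterone, was at 425200, 340200, 439500 and 428000 against 220600 to 424800 (median 349300) (0.26 ± 0.15, adjusted p = 0.276). The near loss of Cyp17a1 was thus seen beside levels of Cyp11a1 and Hsd3b1 within or above the range of the high ovaries.

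Hedgehog signalling links granulosa cells, which make the ligands, to the theca, which responds through PTCH1 and GLI1. Of 9 genes 3 were lower, 1 was higher and 5 were not called, with a median of -0.35. Ihh, a ligand, was at 989, 1667, 799.6 and 627 in the low ovaries and from 1714 to 3734, with a median of 2598, in the high ovaries. All low ovaries were below all high ovaries (-1.41 ± 0.22, adjusted p = 0.000554). Hhip, a target and decoy receptor of the pathway, was at 143, 245, 208 and 209 against 217 to 610.5 (median 489) (-1.20 ± 0.21, adjusted p = 0.00168), and only WT 6 among the low ovaries reached above the lowest high ovary, WT 1.

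Gli1, the target gene most used to read the pathway, was at 1058, 1429, 1110 and 906 in the low and from 1198 to 2100, with a median of 1659, in the high ovaries. It fell by less (-0.55 ± 0.15, adjusted p = 0.0196) and lost its call without HSD17B1-KI 4, HSD17B1-KI 5 or WT 3, with an adjusted p of up to 0.103. The second ligand Dhh was at 847, 1032, 739 and 1035 against 798 to 1904 (median 1459) and was not called (-0.54 ± 0.22, adjusted p = 0.106). The receptor Ptch1 was at 4410, 6585, 6102 and 4901 against 4881 to 9051 (median 6914) (-0.35 ± 0.16, adjusted p = 0.148). The called member that was higher was Gli3, a factor that acts mainly as a repressor of the pathway, at 0.56 with an adjusted p of 0.0425, and it lost its call in 8 of the 15 fits that left out 1 ovary, with an adjusted p of up to 0.183. Those fits were without HSD17B1-KI 1, 2, 4, 5 or 6 or without WT 2, 4 or 6. Over the 7 ovaries with few oviduct reads Ihh and Hhip kept their call, while Gli1 (-0.58, adjusted p = 0.156) and Gli3 (0.32, adjusted p = 0.354) did not. With the oviduct level as a term Gli3 was not called either (adjusted p = 0.217).

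Of 14 genes of the theca layer and stroma 6 were higher in the low ovaries, 1 was lower and 7 were not called, with a median of 0.25. Col3a1, a fibrillar collagen, was at 97190, 108500, 97430 and 118300 in the low and from 31930 to 54880, with a median of 39040, in the high ovaries, a 2.6-fold difference of the group means with ranges far apart (1.40 ± 0.12, adjusted p = 1.26e-05). Col1a1, the main chain of type I collagen, was at 29470, 32600, 25790 and 33320 against 7225 to 18420 (median 13090) (1.18 ± 0.17, adjusted p = 0.000295). Pdgfra, the receptor for platelet-derived growth factor on stromal cells, was at 11230, 14820, 14050 and 15630 against 5927 to 11130 (median 7254) (0.88 ± 0.14, adjusted p = 0.000916). None of the 3 overlapped. Col1a2 and Lum were higher by 0.59 and 0.75, and Lum lost its call without HSD17B1-KI 5 (adjusted p = 0.0532). Nr2f2 was higher by 0.30 with overlap of the ranges and lost its call without HSD17B1-KI 4, WT 3 or WT 6, with an adjusted p of up to 0.11. Ogn, a small proteoglycan, was the member that was lower, at 5560, 7089, 9459 and 8069 against 7576 to 16880 (median 11540) (-0.66 ± 0.19, adjusted p = 0.0263), and it lost its call without HSD17B1-KI 5, WT 3 or WT 6, with an adjusted p of up to 0.11. Against the 3 high ovaries with few oviduct reads Col3a1 and Col1a1 remained called. The other 5 called members did not, at 0.60, adjusted p = 0.102 for Pdgfra, 0.48, adjusted p = 0.101 for Col1a2, 0.59, adjusted p = 0.0916 for Lum, 0.32, adjusted p = 0.119 for Nr2f2 and -0.55, adjusted p = 0.0744 for Ogn.

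Granulosa genes were lower where Cyp17a1 was low. Of 16 genes of estradiol and inhibin production and the granulosa cell 7 were lower, none was higher and 9 were not called, and the median was -0.77 while that of all genes was -0.02. The largest difference was that of Grem1 (ENSMUSG00000074934, minus strand of chr2:113746164-113758646), a secreted antagonist of bone morphogenetic proteins that granulosa cells make under the influence of the oocyte. Its level was 40.7, 28.7, 134 and 43.9 in the low ovaries and from 226 to 5309, with a median of 945, in the high ovaries, a 27.3-fold difference of the means. The ranges did not overlap (-4.52 ± 0.62, adjusted p = 0.000243), and HSD17B1-KI 7 and WT 4 stood at 5309 and 4257, far above the other high ovaries.

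Inha, the alpha subunit shared by the inhibins, was at 50700, 55950, 46850 and 60160 in the low ovaries and from 64170 to 148900, with a median of 124100, in the high ovaries (-1.01 ± 0.19, adjusted p = 0.00268). WT 2, WT 1 and WT 5, the high ovaries with the least Cyp17a1, were at 64170, 64800 and 65440, just above the low ovaries, while WT 8 was at 86360 and the other 7 were at 119400 or above. Inhba, the beta subunit of activin A and inhibin A, was at 1982, 1594, 2232 and 2150 against 3033 to 19970 (median 7313), which is 4.22-fold lower in the low ovaries by the means (-1.88 ± 0.38, adjusted p = 0.00373). Fst, the activin-binding follistatin, was at 5612, 4991, 3862 and 5569 against 6081 to 15620 (median 8821) (-0.86 ± 0.22, adjusted p = 0.0161), and without HSD17B1-KI 4 it was not called (adjusted p = 0.0763). None of these 3 genes had overlapping ranges.

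The other 3 called members of the list were Greb1, Esr2 and Fshr. Greb1, a well-known target of estrogen receptors, was at 17190, 20370, 23560 and 16360 in the low ovaries and from 26360 to 68420, with a median of 44130, in the high ovaries, without overlap (-1.13 ± 0.19, adjusted p = 0.00091). Esr2, the main estrogen receptor of granulosa cells, was at 2821, 3287, 3327 and 3401 against 3269 to 9195 (median 7935) (-1.04 ± 0.24, adjusted p = 0.00866), where only WT 1 of the high ovaries was within the range of the low ones. The FSH receptor gene Fshr was the seventh called member (-1.02 ± 0.32, adjusted p = 0.0424), with overlap, and it lost its call in 11 of the 15 fits that left out 1 ovary, all but those without WT 1, 2, 3 or 5, with an adjusted p of up to 0.159.

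The estradiol enzymes themselves did not pass. Cyp19a1, aromatase, was at 812, 466, 585 and 817 in the low and from 689 to 9456, with a median of 1659, in the high ovaries (-1.64 ± 0.62, adjusted p = 0.0859). Its high ovaries spanned a wide range, and WT 1 and WT 2 overlapped with the low ovaries. Hsd17b1, the gene mutated in HSD17B1-KI mice, was at 8216, 6592, 5459 and 9205 against 6480 to 17390 (median 10910) (-0.56 ± 0.24, adjusted p = 0.129). The mutation changes 1 amino acid and the transcript remains. Against the 3 high ovaries with few oviduct reads, Grem1 (-3.95, adjusted p = 0.0332), Greb1 and Esr2 were called, while Inha (-0.95, adjusted p = 0.0656), Inhba (-1.79, adjusted p = 0.0677) and Fst (-0.78, adjusted p = 0.22) were not called with similar differences, over 7 ovaries in all, and neither was Fshr (-1.18, adjusted p = 0.105).

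**Figure D2:**
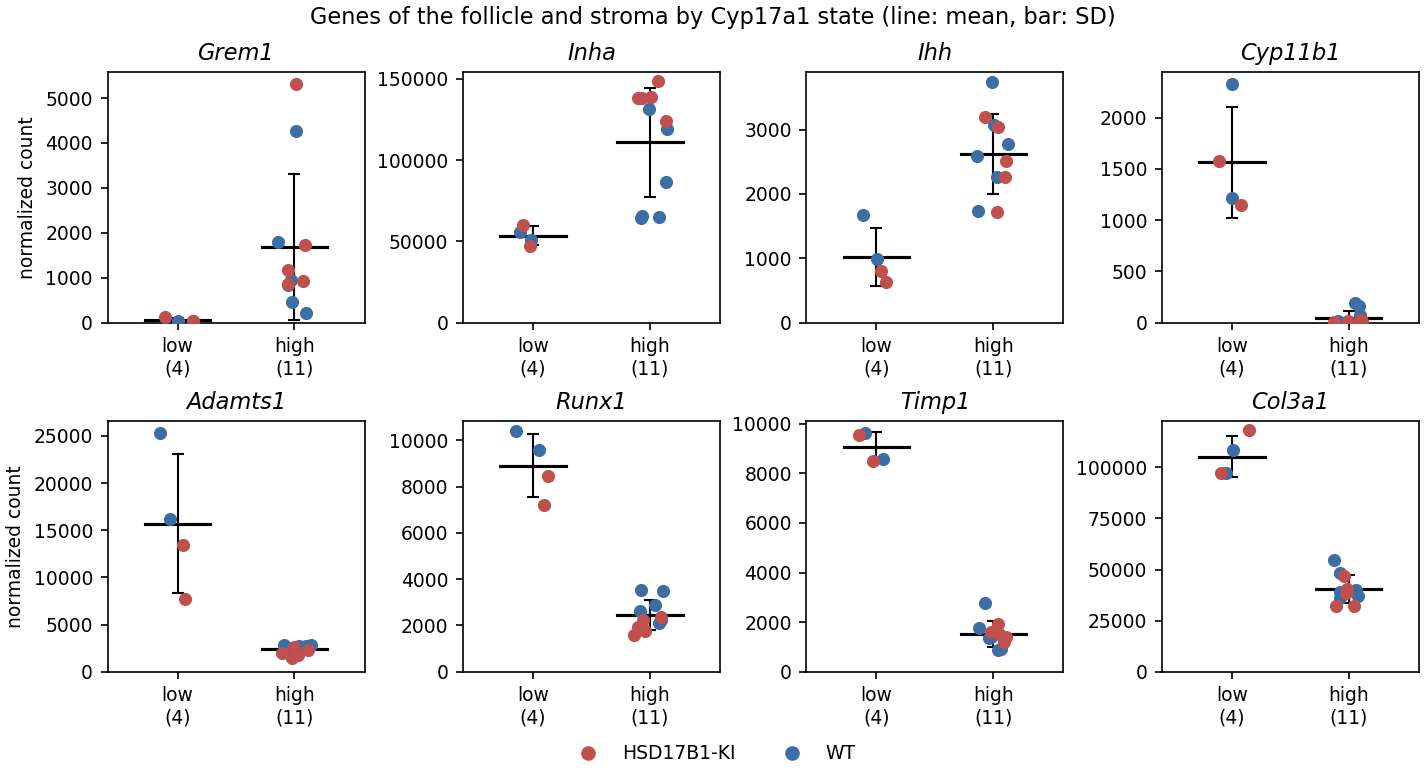
Normalized counts of 8 genes in the 4 low and 11 high ovaries (linear axes from 0). Points are single ovaries with colour for genotype, the line is the mean and the bar the SD (cut at 0 where it would pass below). Grem1, Inha and Ihh lie lower and Cyp11b1, Adamts1, Runx1, Timp1 and Col3a1 higher in all 4 low ovaries than in any high ovary.

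Part of the ovulation list was higher in the low ovaries. Of 16 genes 5 were higher, 1 was lower and 10 were not called, with a median of 0.78. Adamts1 (ENSMUSG00000022893, minus strand of chr16:85793827-85803113), a protease that cleaves versican in the cumulus matrix, was at 16240, 25360, 13400 and 7736 normalized counts in the low ovaries and from 1495 to 2866, with a median of 2580, in the high ovaries. The lowest low ovary, HSD17B1-KI 5, was still well above the highest high ovary, and the means differed 6.49-fold (2.63 ± 0.17, adjusted p = 9.28e-07). Runx1 (ENSMUSG00000022952, minus strand of chr16:92601466-92826149), a transcription factor of the periovulatory follicle, was at 10380, 9579, 8447 and 7223 against 1575 to 3535 (median 2224) (1.93 ± 0.14, adjusted p = 2.81e-06). The high ovaries nearest to the low ones for Runx1 were WT 5, WT 2 and WT 1, at 3535, 3476 and 2892.

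Edn2, the peptide endothelin 2 that contracts the follicle wall, was at 244, 349.8, 105 and 114 in the low ovaries and from 13.5 to 127, with a median of 42.5, in the high ovaries (2.14 ± 0.32, adjusted p = 0.000464). The high ovary WT 2 was at 127, within the range of the low ovaries, and the next high ovary was at 49.1. Il6, a cytokine of the cumulus, was at 25.3, 40.0, 18.5 and 25.6 against 3.10 to 16.7 (median 9.54) (1.45 ± 0.35, adjusted p = 0.0118), and it lost its call without WT 6 (adjusted p = 0.061). Tnfaip6, a matrix protein of the expanding cumulus, was at 71.5, 67.5, 34.4 and 69.5 against 19.7 to 58.2 (median 32.2) (0.86 ± 0.27, adjusted p = 0.0461), and lost its call in 10 of the 15 fits without 1 ovary, all but those without HSD17B1-KI 4, 6 or 7 or WT 1 or 2, with an adjusted p of up to 0.166.

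Other members of the list did not follow. Ptx3, also a protein of the cumulus matrix, was lower in the low ovaries, at 28.6, 45, 68.9 and 85.4 against 87.1 to 182 (median 123), without overlap (-1.18 ± 0.23, adjusted p = 0.0033). Pgr, the progesterone receptor that the LH surge induces in granulosa cells, was at 52.8, 57.5, 81.5 and 96.4 against 87 to 1653 (median 157) (-1.69 ± 0.62, adjusted p = 0.0778), and its highest values were in WT 8 and WT 1, the ovaries with the most oviduct reads. Ptgs2, the inducible prostaglandin synthase of ovulation, was at 61.6, 81.2, 31.1 and 47.6 against 5.21 to 178 (median 16.8) (1.18 ± 0.59, adjusted p = 0.195). The low and high ranges of Pgr and of Ptgs2 overlapped over all 15 ovaries. Against the 3 high ovaries with few oviduct reads, which were at 11.4, 16.3 and 25.2, Ptgs2 was higher in all 4 low ovaries and was called (1.44, adjusted p = 0.0329). In that comparison Adamts1, Runx1 and Edn2 remained called, and Plat, the tissue plasminogen activator, was called as well (0.75, adjusted p = 0.0202). Il6 (1.34, adjusted p = 0.173), Tnfaip6 (0.95, adjusted p = 0.156) and Ptx3 (-1.37, adjusted p = 0.0543) were not called there.

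Luteal genes gave a mixed picture. Of 13 genes 3 were higher, 1 was lower and 9 were not called. The median was 0.44 against all 11 high ovaries and turned to -0.11 against the 3 high ovaries with few oviduct reads. Timp1 (ENSMUSG00000001131, plus strand of chrX:20870166-20874735), an inhibitor of matrix metalloproteinases, was at 8565, 9611, 8485 and 9547 in the low ovaries and from 881 to 2762, with a median of 1388, in the high ovaries, a 5.99-fold difference of the means (2.65 ± 0.23, adjusted p = 8.75e-06). Its low values lay close together and far from all high values. Parm1 was at 6336, 5696, 3001 and 4427 against 987 to 3287 (median 1265) (1.65 ± 0.20, adjusted p = 9.99e-05), where WT 2 overlapped with HSD17B1-KI 4. Cdkn1a, the cell cycle inhibitor p21, was at 2647, 2108, 1818 and 2056 against 413 to 1739 (median 780.1), without overlap (1.42 ± 0.26, adjusted p = 0.00184).

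Genes used to tell functional from regressing corpora lutea were not among the called members. The prolactin receptor Prlr was at 17420, 17070, 33430 and 21290 in the low ovaries and from 12030 to 39160, with a median of 22320, in the high ovaries (0.02 ± 0.29, adjusted p = 0.975). Akr1c18, which inactivates progesterone, was at 435, 377, 364 and 4205 against 65 to 6803 (median 569) (0.38 ± 1.03, adjusted p = 0.842). The 4 low ovaries were unlike each other for Akr1c18, with HSD17B1-KI 5 far above the other 3. Pgf, placental growth factor, was the member that was lower (-0.98 ± 0.26, adjusted p = 0.0177), with overlap, and lost its call without WT 3 or WT 6, with an adjusted p of up to 0.0834. Among the 7 ovaries with few oviduct reads Timp1, Parm1 and Cdkn1a remained called, Pgf was not called (-0.63, adjusted p = 0.233) and Vegfa, an angiogenic factor, was called lower (-0.43, adjusted p = 0.0456).

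Oocyte genes were lower only in part. Of 13 genes none was higher, 3 were lower and 10 were not called, while 6.77% of all genes were called lower. The median was -0.29, 12 of the 13 differences were below 0, and all were between -0.94 and 0.12. Oosp1, a secreted oocyte protein, was at 318, 269.9, 269.6 and 216 against 328 to 539 (median 392), without overlap (-0.64 ± 0.15, adjusted p = 0.0112), and it lost its call without HSD17B1-KI 5 (adjusted p = 0.0639). Kit, the receptor for KIT ligand on oocytes and also on theca cells, was at 2056, 1931, 4104 and 1691 against 2411 to 7918 (median 4531) (-0.94 ± 0.25, adjusted p = 0.0201), and lost its call without HSD17B1-KI 5 or WT 6, with an adjusted p of up to 0.109. Bmp15 was the third (-0.40 ± 0.12, adjusted p = 0.0375), and lost its call without HSD17B1-KI 2, 4, 5, 6 or 7 or WT 3 or 6, with an adjusted p of up to 0.136. Over the 7 ovaries with few oviduct reads Bmp15 remained called, while Oosp1 (-0.65, adjusted p = 0.0893) and Kit (-0.81, adjusted p = 0.266) were not.

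No cell cycle gene was called among 17, with a median of -0.14 and a range from -0.33 to 0.19. Among 17 genes of cholesterol synthesis 1 was higher and 2 were lower, with a median of -0.14. Hmgcs1, the synthase at the start of the pathway, was higher, at 26550, 29490, 43620 and 36060 against 8431 to 31120 (median 13150) (1.21 ± 0.32, adjusted p = 0.0176), with overlap at WT 2 and WT 5, and without HSD17B1-KI 4 or HSD17B1-KI 5 it was not called, with an adjusted p of up to 0.072. Over the 7 ovaries with few oviduct reads it was not called either (0.76, adjusted p = 0.149). Of 13 immediate early genes, which rise and fall within minutes of a stimulus, Fos was lower and Jun higher, and the list's median was -0.12. The other 11 were not called, and this share of calls was near the 15.1% called among all genes tested. Fos was at 197, 225, 369 and 234 in the low and from 552 to 2525, with a median of 786, in the high ovaries (-1.83 ± 0.33, adjusted p = 0.00175). Its partner Jun was at 5176, 5712, 5560 and 6077 against 3553 to 5168 (median 4096) (0.44 ± 0.08, adjusted p = 0.00246), and neither gene's ranges overlapped. Both kept their call against the 3 high ovaries with few oviduct reads.

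**Figure D3:**
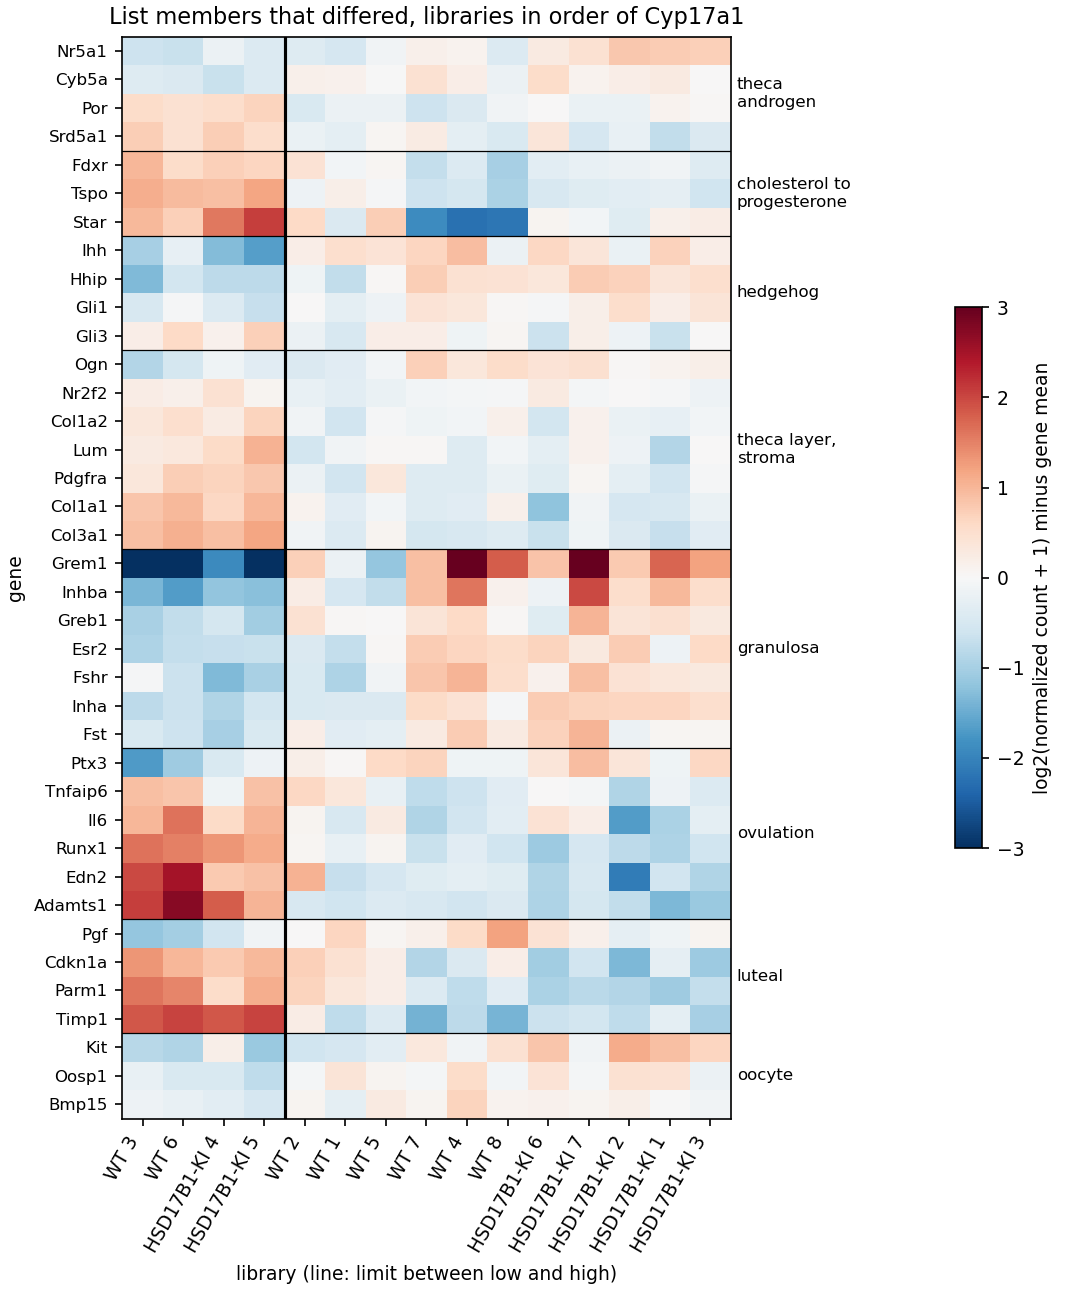
Members of the follicle, theca and luteal lists that were called, as log2(normalized count + 1) minus the mean of the gene (colour, capped at 3), with the 15 ovaries in order of Cyp17a1 from left to right and the limit between low and high as a line. Grem1 and Inhba are lowest and Timp1, Adamts1 and Runx1 highest in the 4 ovaries to the left of the line.

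**Figure D4:**
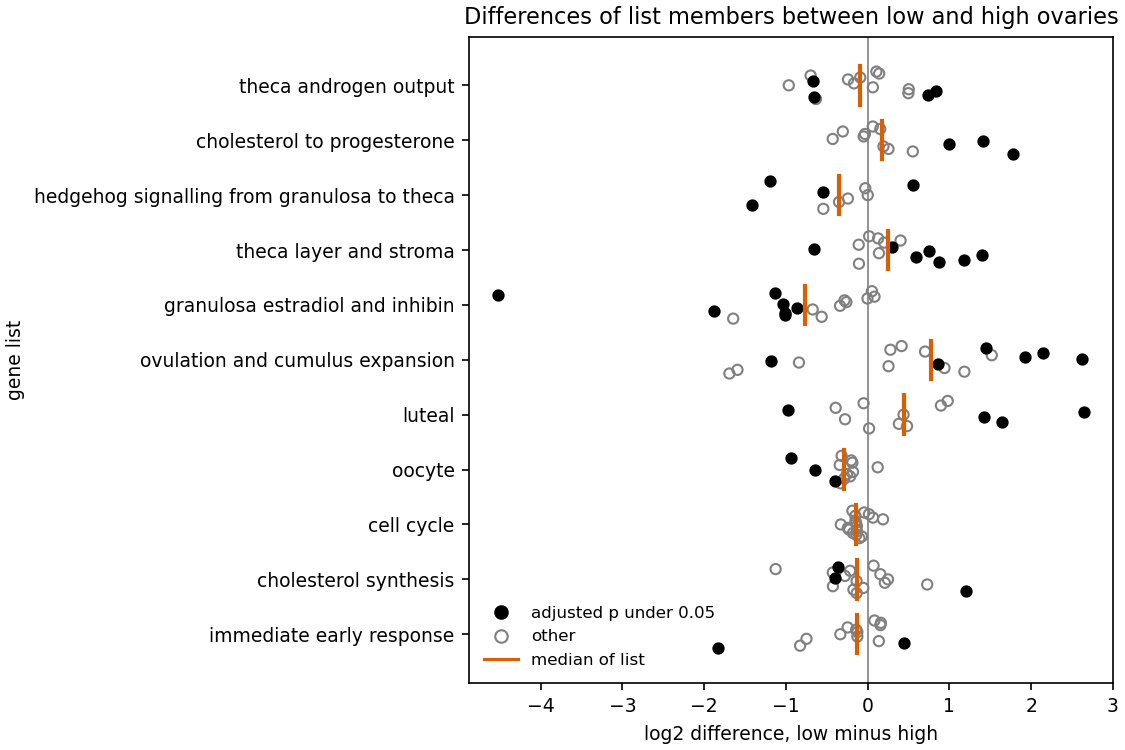
Log2 difference, low minus high, of each gene of 11 lists, with called genes filled, other genes open and the median of the list as a line. The granulosa list has 7 called genes, all lower, with a median of -0.77, and no gene of the cell cycle list is called.

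Among all genes with separate ranges, a mean of at least 10 and a gene name, the highest difference was that of Cyp11b1 (ENSMUSG00000075604, minus strand of chr15:74834125-74841643). It encodes 11beta-hydroxylase, the enzyme that completes glucocorticoids in the adrenal cortex. Its level was 1213, 2325, 1146 and 1575 in the low ovaries and from 2.38 to 195, with a median of 13.2, in the high ovaries, and the means differed 32.9-fold (6.27 ± 0.91, adjusted p = 0.000335). The 3 high ovaries with the least Cyp17a1 had the most Cyp11b1 among the high, with 195 in WT 1, 160.5 in WT 5 and 79.6 in WT 2, and the other 8 were at 24.8 or below. Of the adrenal cortex markers, Cyp21a1 was at 1.10, 1.25, 0.840 and 3.66 in the low ovaries, Cyp11b2 at 0, 5.00, 2.52 and 1.22 and the ACTH receptor Mc2r at 11, 15, 11.8 and 17.1, against 1.08 to 37.3 (median 12.4), for Mc2r in the high ovaries. The adrenal enzymes Cyp21a1 and Cyp11b2 were thus at or near 0 in the low ovaries while Cyp11b1 was not. Akr1b7, an aldose reductase-like protein of the adrenal cortex and other steroidogenic tissue, was at 143, 209.9, 896 and 133 against 17.2 to 83.6 (median 42.3) (2.36 ± 0.41, adjusted p = 0.00124), with HSD17B1-KI 4 far above the others. Among the 7 ovaries with few oviduct reads Cyp11b1 remained called (5.04, adjusted p = 0.0107) and Akr1b7 did not (2.62, adjusted p = 0.061).

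The other 9 genes with the highest differences included secreted proteins and receptors. Ptprn, a protein of secretory granules, was at 713, 841, 431 and 468 against 0 to 168 (median 14.1) (5.21 ± 0.73, adjusted p = 0.000279). Dmbt1, a secreted scavenger receptor-like protein, was at 632, 512, 244 and 324 against 6.68 to 44.6 (median 10.8) (4.88 ± 0.35, adjusted p = 2.81e-06). Pappa2, a protease that frees insulin-like growth factors from their binding proteins, was at 684, 1542, 957 and 1178 against 23.5 to 143 (median 38.2) (4.62 ± 0.38, adjusted p = 8.75e-06). All 3 were over 10-fold higher by the means and had separate ranges. Spp1, osteopontin, was at 4952, 6148, 3613 and 2575 against 238 to 849 (median 605), or 7.43-fold higher by the means (2.89 ± 0.29, adjusted p = 2.56e-05). Olr1, the receptor for oxidized LDL, was at 108, 177, 258 and 154 against 7.25 to 33.6 (median 17.4) (3.28 ± 0.37, adjusted p = 5.34e-05). The other 4 were Wnt10a, Vsig8, Cdk15 and Ankrd1, with differences of 3.15, 3.01, 2.76 and 2.71. Of the 10 highest, Ankrd1 alone was not called against the 3 high ovaries with few oviduct reads (2.75, adjusted p = 0.0522).

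Among the 10 genes with the lowest differences, Grem1 was second. Mug-ps1, a pseudogene of the murinoglobulin protease inhibitors, was at 27.5, 40.0, 58.8 and 39 against 296 to 2318 (median 758) (-4.23 ± 0.39, adjusted p = 1.44e-05), and its reads may be shared with near-identical copies, of which Mug1 was at 38.5, 75, 89.9 and 23.2 against 251 to 1434 (median 523). Dnah2, an axonemal dynein heavy chain, was at 149.6, 135, 299.8 and 166 against 598 to 4549 (median 2918) (-3.82 ± 0.37, adjusted p = 1.87e-05). Rgs13, which dampens signalling of G protein-coupled receptors, was at 27.5, 23.7, 47 and 19.5 against 155 to 1077 (median 415) (-3.70 ± 0.46, adjusted p = 0.000109). The kinase gene Mylk4 was at 3.30, 2.50, 9.24 and 0 against 25.6 to 99.4 (median 66.8), the urea cycle gene Otc at 0, 1.25, 0 and 1.22 against 5.95 to 33.1 (median 21.7), and Olfr330 at 9.90, 3.75, 19.3 and 12.2 against 45.3 to 323 (median 138). None of these 6 overlapped between low and high ovaries, and each was called against the 3 high ovaries with few oviduct reads.

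The remaining 3 of the lowest genes differed by less when the oviduct reads were taken into account. Ltf, lactoferrin, was at 15.4, 45, 47.9 and 51.2 in the low ovaries and from 122 to 15890, with a median of 924, in the high ovaries, with its maximum in WT 1, where the oviduct genes were also highest. Its difference of -4.65 became -2.15, adjusted p = 0.0597, against the 3 high ovaries with few oviduct reads. Oit1 went from -4.29 to -1.76, adjusted p = 0.108, and Ttc29 from -4.14 to -1.56, adjusted p = 0.0551. For all 3 genes every low ovary was still below these 3 high ovaries. For Oit1 this rests on values near 0, at 1.68 in HSD17B1-KI 4 (low) and 2.17 in HSD17B1-KI 7 (high), which are too low to tell apart. With the oviduct level as a term all 3 remained called, at -2.58 for Ltf (adjusted p = 0.0397), -2.06 for Oit1 (adjusted p = 0.0264) and -1.49 for Ttc29 (adjusted p = 0.0217). Ttc29 also lost its call without WT 3 or WT 6, with an adjusted p of up to 0.0685.

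Of the 10 genes whose level followed Cyp17a1 most closely over the 15 ovaries, by Pearson's r of log2(normalized count + 1), 7 had a gene name and 3 were gene models without one. The 7 were Mid1ip1 (r = 0.957), Dnah2 (0.954), Apoc3 (0.945), Phyhip (0.944), Trib2 (0.943), Ptprt (0.942) and Fbp1 (0.94). These are descriptions over ovaries that form separate low and high clusters, and they share the libraries with the comparison. Mid1ip1, a regulator of fatty acid synthesis, was at 4917, 5312, 5083 and 4988 in the low ovaries and from 7849 to 17490, with a median of 15170, in the high ovaries. Trib2, a pseudokinase, was at 5153, 5638, 7697 and 4785 against 9560 to 34810 (median 29030). For both genes WT 5, WT 2 and WT 1, with 2033 to 6322 counts of Cyp17a1, were the lowest of the high ovaries. Phyhip was at 155, 209.9, 533 and 192 against 737 to 2359 (median 1849), and Apoc3, an apolipoprotein, at 53.9, 45, 51.2 and 54.9 against 114 to 233 (median 169.9).

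Tinagl1 (ENSMUSG00000028776, minus strand of chr4:130164454-130175122), a matrix protein of basement membranes, had the smallest adjusted p of all genes and was chosen for this after its values were seen. It was at 10600, 10240, 8033 and 7578 in the low and from 1330 to 2791, with a median of 1897, in the high ovaries, 4.5-fold apart by the means (2.21 ± 0.13, adjusted p = 6.83e-07).

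The promoter letters of 3 of the higher genes are shown because Runx1 was higher and Nr5a1 lower in the same ovaries. These 3 genes were picked, and a promoter without a match would not have been shown. That all 3 hold a match is therefore no result. Each run is the 250 bases before the RefSeq start on GRCm38.p6, plus strand, with matches to the letters TGTGGT (RUNX) or, in Akr1b7, also to AAGGTCA (NR5A) in capitals. Both strands were searched, so that a capital stretch can be the reverse complement, and the matches do not overlap.
Akr1b7, chr6:34412112-34412361: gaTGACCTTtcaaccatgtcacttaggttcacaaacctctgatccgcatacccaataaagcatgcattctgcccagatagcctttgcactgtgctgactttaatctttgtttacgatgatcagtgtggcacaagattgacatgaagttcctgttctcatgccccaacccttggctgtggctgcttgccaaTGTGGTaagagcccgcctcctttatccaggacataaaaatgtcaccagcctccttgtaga
Edn2, chr4:120160956-120161205: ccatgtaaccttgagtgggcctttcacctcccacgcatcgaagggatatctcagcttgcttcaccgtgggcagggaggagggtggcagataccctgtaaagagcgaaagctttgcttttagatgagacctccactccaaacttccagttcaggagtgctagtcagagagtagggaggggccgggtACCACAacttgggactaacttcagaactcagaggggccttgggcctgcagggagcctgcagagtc
Spp1, chr5:104434861-104435110: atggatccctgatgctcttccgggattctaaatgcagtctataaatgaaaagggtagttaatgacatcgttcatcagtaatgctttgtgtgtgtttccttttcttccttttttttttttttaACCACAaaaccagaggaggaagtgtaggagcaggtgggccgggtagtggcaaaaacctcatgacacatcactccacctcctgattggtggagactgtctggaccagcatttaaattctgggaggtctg
The RUNX letters stand 60, 65 and 128 bases before the start of Akr1b7, Edn2 and Spp1, and the NR5A letters 248 bases before that of Akr1b7. Of 32851 promoters of this length in the table, 14% held the RUNX letters and 4.08% the NR5A letters. Among 895 promoters of called genes with all low ovaries above the high, these shares were 12% and 3.69%, and among 472 of called genes with all low ovaries below they were 9.96% and 3.81%. Neither motif was thus more frequent than in all promoters, and a match describes letters only.

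Markers of other cell types that an ovary sample can hold moved in part. Of 8 macrophage genes 4 were higher and none lower, with a median of 0.53, among them the complement genes C1qa (0.64 ± 0.13, adjusted p = 0.00383), C1qb (0.54 ± 0.12, adjusted p = 0.00585) and C1qc (0.55 ± 0.12, adjusted p = 0.00547). None of the 8 was called against the 3 high ovaries with few oviduct reads. Of 7 smooth muscle genes 4 were higher, with a median of 0.51, and Smtn, at 6976, 6799, 6596 and 6773 against 3648 to 5989 (median 4940), had separate ranges (0.49 ± 0.08, adjusted p = 0.00125). Smtn, Actg2 and Des remained called against the 3 high ovaries with few oviduct reads and Tagln did not (0.85, adjusted p = 0.0625). Against all 11 high ovaries Des barely passed (0.97 ± 0.31, adjusted p = 0.0485). It lost that call in 11 of the 15 fits that left out 1 ovary, with an adjusted p of up to 0.184. Of 7 endothelial genes 1, Emcn, was higher, with a median of 0.15, while 8.35% of all genes were called higher. Emcn (0.30 ± 0.10, adjusted p = 0.0476) lost its call in 9 of the 15 fits that left out 1 ovary, with an adjusted p of up to 0.193. None of the 7 was called against the 3 high ovaries with few oviduct reads. No gene of the neutrophil (5 tested), surface epithelium (7), adipose (7) or erythroid (5) lists was called. Of the 7 oviduct genes 1 was lower and 6 were not called, with a median of -3.56. The part of these cells in the differences of the collagens and of the other stromal genes was not tested.

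The differences were also read against the 3 high ovaries with few oviduct reads, and within each genotype. All 3256 called genes had the same sign against the 3 high ovaries with few oviduct reads as against all 11, and all had the same sign within HSD17B1-KI and within WT. The same ovaries gave the calls, so that this is no independent check, and over all genes 70.9% had the same sign in both genotypes. Within HSD17B1-KI, 2 low against 5 high ovaries, the log2 difference was -4.31 for Grem1, -1.37 for Inha, 2.34 for Adamts1, 2.59 for Timp1 and 6.81 for Cyp11b1. Within WT, 2 low against 6 high ovaries, it was -4.71 for Grem1, -0.67 for Inha, 2.90 for Adamts1, 2.71 for Timp1 and 5.75 for Cyp11b1. Of the called genes, 103 also differed between the genotypes in the same fit.

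**Figure D5:**
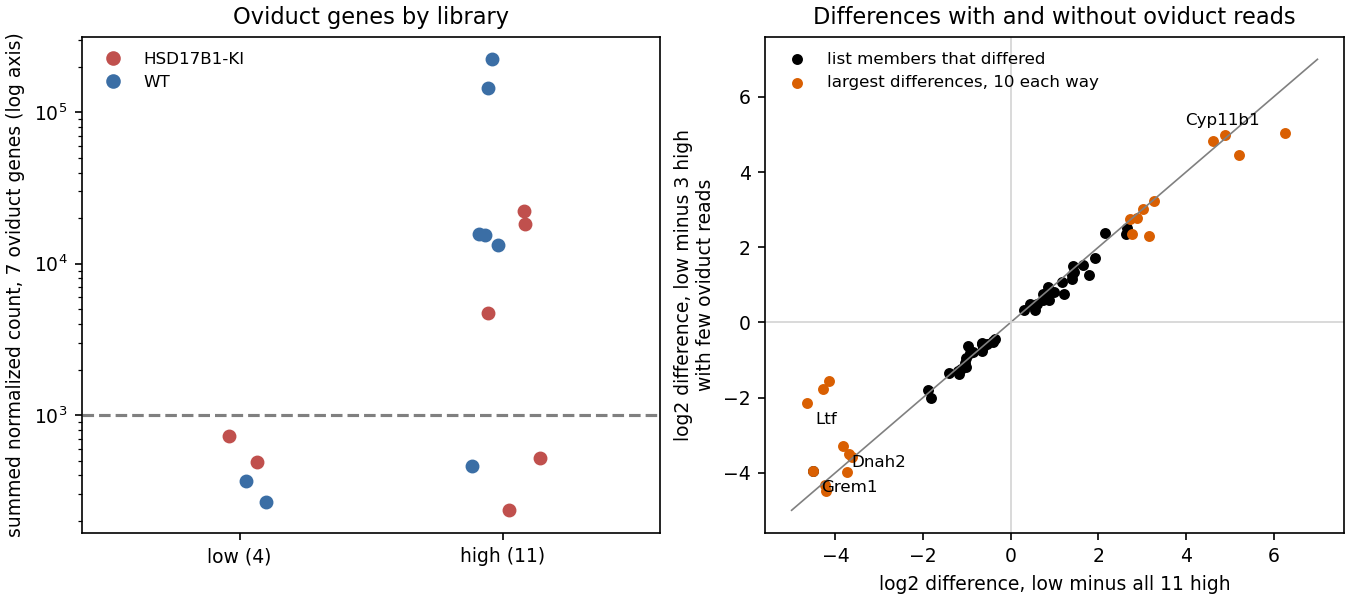
Left, summed normalized count of 7 oviduct genes in each ovary (log axis, limit of 1000 as a line), which was 268.6 to 725.9 in the 4 low ovaries and 235.3 to 223800 in the 11 high ovaries. Right, log2 difference against the 3 high ovaries with few oviduct reads over that against all 11, for called list members and the 20 genes with the largest differences, where Ltf lies well above the line of equality.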

How the data were processed

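Ovarian RNA of 7 HSD17B1-KI and 8 WT mice was sequenced from stranded poly(A) libraries (TruSeq Stranded mRNA). The authors trimmed the reads, aligned them with STAR 2.7.3 to mm10 after demultiplexing with bcl2fastq 2.20, counted them per gene and deposited 1 table of 27907 genes, in which the signal is the read count divided by 1 size factor per library. The versions are those in the submitters' processing notes, and the counting program and the annotation release are not given in the sources used here. Division by the smallest step of each library gave whole reads (within 0.01 read) for 100% of the values, and these reads went into edgeR and DESeq2. Library size was 26544745 to 72362981 reads, so that levels under 10 normalized counts are imprecise.

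Ovaries were split at 1000 normalized counts of Cyp17a1 and compared with limma-trend on log2(normalized count + 1), with genotype as a term and an adjusted p under 0.05 (Benjamini-Hochberg). The added count of 1 understates the differences of low genes. The split, the 20 gene lists (214 genes, all found) and the genes they hold were chosen with earlier results of these data known. The genes named are members of the lists, the 10 highest and the 10 lowest differences among called genes with separate ranges, a mean of 10 or more and a gene name, the 10 genes most like Cyp17a1 and its neighbours. Alternatives were other pseudocounts, filters and scalings, edgeR (quasi-likelihood, TMM), DESeq2, no genotype term, a continuous Cyp17a1 term, each genotype alone, an oviduct covariate (the mean centred log2 value of the 7 oviduct genes), a replicate block and leaving out each ovary. Chosen after seeing the data were fits on the 7 ovaries with few oviduct reads, and on all but the 2 with the most oviduct reads or the 2 high ovaries with the least Cyp17a1. The tests were tested on simulated data. Each library is 1 mouse. Positions are those of GENCODE M21, which held 27533 of the 27907 identifiers, and promoters those of RefSeq. Software was R 4.3.3, limma 3.58.1, edgeR 4.0.16 and DESeq2 1.42.0.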

Additional observations from a re-analysis of the deposited data

Results flagged for a closer look

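Among 270 sets of 4 to 6 ovaries screened for a single value far from the rest, 12 held one, and chance marks about 1 in 20. The count is thus no more than chance alone would give. Of the steroid genes, Cyp11a1 was at 193000 normalized counts in HSD17B1-KI 6 against 301000 to 350000 in the other high HSD17B1-KI ovaries, and Hsd3b1 at 340000 in WT 6 against 425000 to 440000 in the other low ovaries. Edn2 was at 13.5 in HSD17B1-KI 2 against 31.9 to 43.4 in the other high HSD17B1-KI ovaries, and at 127 in WT 2 against 37.3 to 49.2 in the other high WT ovaries. Tnfaip6 was at 34.4 in HSD17B1-KI 4 against 67.5 to 71.5 in the other low ovaries. Fos was at 2530 in HSD17B1-KI 6 against 616 to 786 in the other high HSD17B1-KI ovaries. In the low ovaries, Ltf was at 15.4 in WT 3 against 45 to 51.2, Oit1 at 1.68 in HSD17B1-KI 4 against 0 in the other 3, and C1qa at 2830 in WT 6 against 4240 to 4590. In the high WT ovaries, Olfr330 was at 323 in WT 7 against 112 to 141, and Akr1b7 at 17.2 in WT 8 against 39.2 to 60.8. Actg2 was at 3100 in HSD17B1-KI 3 against 2050 to 2300 in the other high HSD17B1-KI ovaries.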

How the results depend on the processing

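Of the called genes, 79 were fitted again under each alternative that applied to them, and none of these changed direction. They are genes named above and the list members Fdft1, Insig1, Mrc1 and Tekt1, which were called but not named. Tinagl1, Wbp1l and Mug1 were not among the 79. In 1343 fits other than leaving out 1 ovary the 79 genes kept their call in 1136 and lost it in 207, and in 1185 fits without 1 ovary they kept it in 1079 and lost it in 106. The count of 3256 genes (1798 higher and 1458 lower) moved by less than 1.5 times in each direction with other pseudocounts, filters and scalings, edgeR, no genotype term or a continuous Cyp17a1 term, but DESeq2 gave 4631, of which 2351 were lower. Within HSD17B1-KI alone 1438 genes were called (837 higher, 601 lower), and within WT alone 198 (144 higher, 54 lower), with 2 low ovaries in each. With the oviduct covariate the count was 2218, and over the 7 ovaries with few oviduct reads 1169 (696 higher, 473 lower). Without 1 ovary the count was 1897 (1120 higher, 777 lower, without HSD17B1-KI 5) to 3652 (1961 higher, 1691 lower, without WT 1), and the low ovaries WT 6 and HSD17B1-KI 4 gave 2142 and 2205 when left out. Without WT 1 and WT 8, which had the most oviduct reads, 3740 were called, and without WT 2 and WT 1, the high ovaries with the least Cyp17a1, 3940. The genotype interaction was 0 under each alternative run. Whether the replicate numbers pair the mice could not be told. The correlation of deviations over 7 pairs was 0.511 for number 1 and -0.03 to 0.142 for the others. Of 7 HSD17B1-KI mice 2 were closest to their own number. The 2 low ovaries of a genotype deviate from their mean as mirror images, which fixes part of these values. With the replicate block 1223 genes were called (701 higher, 522 lower). With 4 low ovaries, differences smaller than the spread between ovaries remain undetected here.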

Other observations

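The 3 high ovaries with the least Cyp17a1 shared other values, chosen here after they were seen and with no test. Hsd17b7, which acts in cholesterol synthesis and also reduces estrone, was at 8396 normalized counts in WT 1, 24470 in WT 2 and 15680 in WT 5, and at 1266 to 3953 in the other 12 ovaries. Runx2, a transcription factor of the luteinizing follicle, was at 8839, 15150 and 11380 in the same order, and at 557.8 to 5785 elsewhere. Sgk1, a kinase that steroid hormones induce, was at 18000, 28020 and 23340, and at 1960 to 14330 elsewhere. Plin4, a lipid droplet protein, was at 19120, 41120 and 27620, and at 678.6 to 6554 elsewhere. Runx2 and Sgk1 were next highest in low ovaries, at 5785 in WT 3 and 14330 in WT 6, and neither gene was called between low and high ovaries.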
